A study of Mus musculus with 30 samples.

Results

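The 36 genes described here code for the glucose transporters and enzymes of glycolysis and for targets and regulators of the hypoxia-inducible factors (HIF). They were chosen by symbol, as listed glycolytic and HIF target genes, and all 36 of 36 had enough reads to be tested, out of 16862 genes tested and 48440 genes in the count table. They were read in bulk RNA sequencing of 30 mouse tumors grown from 5 fibrosarcoma lines, MCA-943 (4 tumors), MCA-969 (8), MCA-948 (8), MCA-970 (6) and MCA-972 (4). Each line came from a single fibrosarcoma that the carcinogen methylcholanthrene (MCA) had induced under the skin of a mouse, was passaged in vitro and was then transplanted under the skin of C57BL/6 mice, and leukocytes were removed with CD45 beads before RNA extraction. The labelled mouse strain is Ncr1Cre for MCA-943 and Ncr1Cre R26DTA for the other lines, all on a C57BL/6 background. Differences of MCA-943 from the other lines therefore cannot be told apart from a difference of labelled strain. In Ncr1Cre R26DTA mice the Ncr1 promoter drives the Cre recombinase in NKp46+ innate lymphoid cells, where it switches on diphtheria toxin A, so that those cells are lost. The study grouped MCA-943 and MCA-969 as lines whose growth was not sensitive to NK1.1+ cells, and MCA-948, MCA-970 and MCA-972 as sensitive lines. It compared growth in mice with and without an antibody that depletes NK1.1+ cells. Neither the titles nor the paper say which of these mice the sequenced tumors came from. The labels carry the opposite sensitivity for 2 tumors of MCA-969 (its W-1D and its W-2D), and dropping this pair changed none of the 65 differences between lines called for the 36 genes. A line is 1 tumor's descendants, ages are not given, and the labels do not say that tumors of a line grew in separate mice, so p-values measure only the spread between these tumors.

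Glycolysis turns glucose into pyruvate, and lactate dehydrogenase turns pyruvate into lactate, which regenerates the NAD+ that the pathway needs. When oxygen is plentiful, prolyl hydroxylases (Egln1, Egln3) mark the HIF alpha proteins (Hif1a, Epas1) for destruction, so that most of this control acts on protein and is not read in the Hif1a transcript. When oxygen falls, HIF alpha pairs with Arnt, binds the core ACGTG or GCGTG in DNA, and raises transcription of glucose transporters, nearly every glycolytic enzyme, and genes for pH control, mitophagy and collagen hydroxylation. Solid tumors outgrow their vessels and often hold poorly oxygenated regions, and in bulk tumor RNA such regions are averaged with the rest.

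Upstream sequences are shown for members that stand for different numbers of HIF cores: Pgk1 and Ldha from glycolysis, Adm, P4ha2 and Egln3 among the HIF targets, and the carbonic anhydrase genes Car12 and Car9, whose levels differed most between lines. They are the 250 bases before the RefSeq transcription start (GRCm38.p6, coding strand), except that of Car9 only 25 bases around the core are given, and capitals mark ACGTG or GCGTG on either strand (CACGT or CACGC when read on the strand shown). The windows lie at chrX:106186850-106187099 (Pgk1, plus strand), chr7:46845554-46845803 (Ldha, plus strand), chr7:110627407-110627656 (Adm, plus strand), chr11:54100674-54100923 (P4ha2, plus strand), chr12:54203875-54204124 (Egln3, minus strand), chr9:66713436-66713685 (Car12, plus strand) and chr4:43506998-43507022 (Car9, plus strand). The P4ha2, Ldha and Car9 windows lie within the gene as annotated, downstream of its first annotated base, and the others lie before it.
Pgk1: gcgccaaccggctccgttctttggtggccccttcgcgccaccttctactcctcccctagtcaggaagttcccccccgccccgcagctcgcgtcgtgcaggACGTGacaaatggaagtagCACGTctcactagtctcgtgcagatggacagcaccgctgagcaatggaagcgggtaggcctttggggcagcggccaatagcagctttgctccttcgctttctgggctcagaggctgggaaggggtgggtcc
Ldha: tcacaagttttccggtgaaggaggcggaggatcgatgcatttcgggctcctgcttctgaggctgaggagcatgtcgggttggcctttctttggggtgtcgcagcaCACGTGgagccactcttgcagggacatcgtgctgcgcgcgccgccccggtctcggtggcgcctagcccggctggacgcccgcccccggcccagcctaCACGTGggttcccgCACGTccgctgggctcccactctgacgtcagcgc
Adm: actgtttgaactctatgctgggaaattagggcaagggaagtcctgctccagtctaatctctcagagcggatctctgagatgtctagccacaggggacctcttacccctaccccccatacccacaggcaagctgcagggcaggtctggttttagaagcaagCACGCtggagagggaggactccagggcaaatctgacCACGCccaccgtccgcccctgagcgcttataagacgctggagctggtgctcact
P4ha2: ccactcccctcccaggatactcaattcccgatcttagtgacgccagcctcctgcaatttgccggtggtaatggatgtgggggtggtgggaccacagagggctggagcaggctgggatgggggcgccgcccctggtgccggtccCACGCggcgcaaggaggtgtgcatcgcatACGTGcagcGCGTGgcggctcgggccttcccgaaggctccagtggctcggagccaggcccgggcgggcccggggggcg
Egln3: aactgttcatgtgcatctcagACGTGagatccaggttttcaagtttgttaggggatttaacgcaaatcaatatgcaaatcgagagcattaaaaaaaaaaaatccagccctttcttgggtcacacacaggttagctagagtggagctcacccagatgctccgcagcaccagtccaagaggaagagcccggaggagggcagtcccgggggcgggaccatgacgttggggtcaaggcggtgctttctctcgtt
Car12: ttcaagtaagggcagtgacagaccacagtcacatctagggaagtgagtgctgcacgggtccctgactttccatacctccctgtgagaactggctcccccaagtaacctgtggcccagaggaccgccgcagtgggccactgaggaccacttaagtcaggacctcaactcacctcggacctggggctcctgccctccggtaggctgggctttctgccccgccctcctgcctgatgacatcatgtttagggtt
Car9: atttccgatgCACGTacagcccgtc
Counted from the start site, with -1 the base before it, the cores began at -150 and -131 in Pgk1, at -107, -78 and -69 in P4ha2, at -90 and -54 in Adm, at -229 in Egln3 and at -18 in Car9. Ldha held 5 matches because each of its CACGTG palindromes counts once on each strand, and Car12 held none, which says only that these letters are not in this window. The table had 47 such windows for 32 of the 36 members, with none listed for Slc2a3, Bnip3l, Epas1 and Ndrg1. ACGTG was found in 18 of the 32 genes (56.2%) against 24.4% of 11695 tested genes with a window, and ACGTG or GCGTG in 28 (87.5%) against 59.4%. Counted by window, 44.7% of the members' windows held ACGTG against 16.6% of all windows in the table and 20.8% of those of tested genes, and 76.6% held either core against 38.6% and 53.5%. The members' windows had a median GC content of 60.4%, against 52.4% in all windows and 59.2% in those of tested genes. A match is a stretch of letters and not a measured binding site.

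Total counts ran from 27745104 to 46537062 per tumor, so 3 counts corresponded to 0.0792 to 0.0908 CPM (counts scaled to a common library total, per 1e+06). Transcripts of mesenchymal cells were abundant in every tumor, with 10 markers such as Col1a1 and Vim summing to between 15800 and 82720 CPM, against 3.28 to 102.6 CPM for 10 leukocyte markers, 36.4 to 637 CPM for 10 endothelial markers and 38.7 to 2889 CPM for 8 erythroid markers. The library numbers in the labels were split here into 3 runs of neighbouring numbers, and the third run has gaps. The first run holds 6 MCA-969 and all 4 MCA-972 tumors, the second 2 MCA-948 tumors (a-2G and a-R), 2 MCA-969 and all 6 MCA-970 tumors, and the third all 4 MCA-943 and 6 MCA-948 tumors. Line and run are therefore partly confounded, and values within a run are given below where a run holds both lines. In bulk RNA, fewer cells of a kind and less RNA per cell cannot be told apart.

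Most members differed between the lines, at a rate close to that of all genes. By edgeR's quasi-likelihood F test over the 5 lines, 33 of 36 members passed an adjusted p of 0.05, and 94.1% of all genes tested passed it. The 3 members that did not pass were Epas1 (HIF-2 alpha, adjusted p = 0.552), P4ha1 (a collagen prolyl hydroxylase subunit, adjusted p = 0.497) and Ankrd37 (a HIF target of little known function, adjusted p = 0.251). The range between the highest and the lowest line mean had a median of 1.22 on the log2 CPM scale over members and 1.15 over all genes. At the wide end of the members were the carbonic anhydrases Car9 (4.29) and Car12 (4.24), the aldolase Aldoc (2.83) and the regulatory enzyme Pfkfb3 (2.75), and at the narrow end P4ha1 (0.26), Hk1 (0.42) and Egln1 (0.45).

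The lines did not share the members' high and low values evenly. MCA-943 had the lowest mean of the 5 lines in 14 members and the highest in none, whereas over all genes it was lowest in 25.3% and highest in 26.5%. MCA-972 was lowest in 13 members and highest in 1, Pfkm, against 17.9% and 17.6% of all genes. MCA-970 was highest in 13 members and lowest in 0 (18.6% and 19.1% of all genes), MCA-948 highest in 12 and lowest in 6 (22.7% and 24.4%), and MCA-969 highest in 10 and lowest in 3 (14.6% and 13.3%). Averaged over the 36 members, log2 CPM was 6.33 in MCA-943, 6.45 in MCA-972, 6.77 in MCA-948, 6.94 in MCA-970 and 7.01 in MCA-969. The map of all members and tumors shows that the order of the lines changed from gene to gene.

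**Figure D1:**
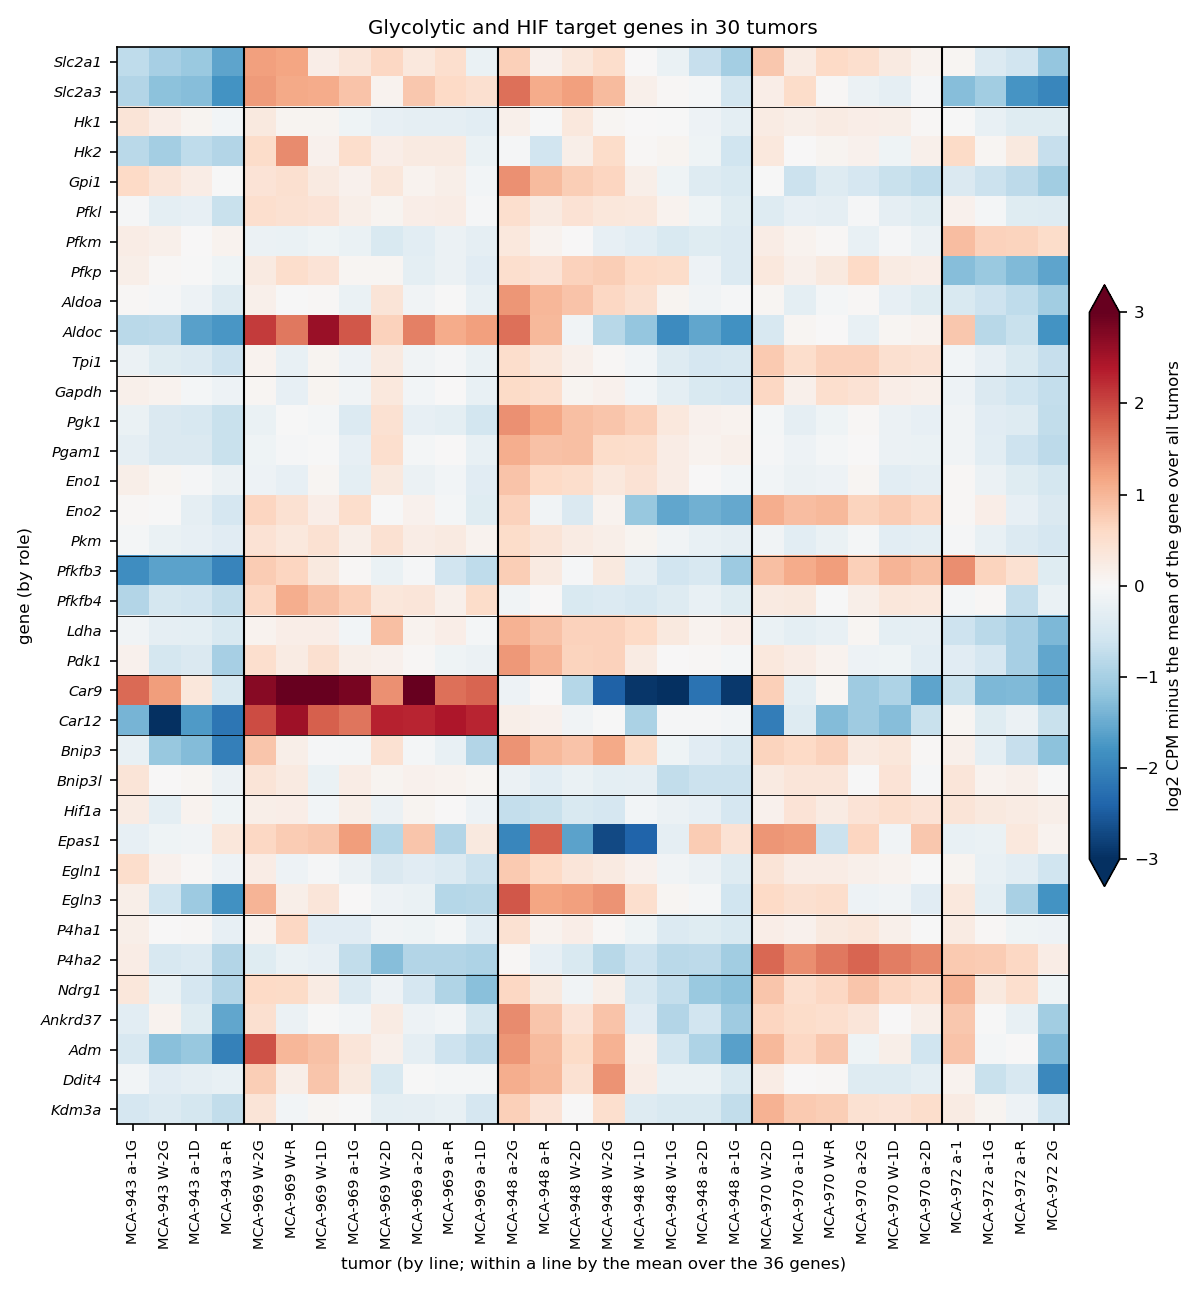
Map of the 36 members (vertical axis, grouped by role) in the 30 tumors (horizontal axis, by line, ordered within a line by the mean over the members). Colour gives log2 CPM minus the gene's mean over all tumors, with red above and blue below and the scale ending at 3 in either direction. Car9 and Car12 are red in all 8 MCA-969 tumors, P4ha2 in all 6 MCA-970 tumors, and Pfkp is blue in all 4 MCA-972 tumors.

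Pairs of lines were compared with 1 contrast each in the same fit, and a gene was called at an adjusted p under 0.05 and a log2 fold change of at least 1. Over the 10 pairs, 65 differences in 22 members were called. Where MCA-943 was set against the 3 sensitive lines, 10 members were called against MCA-948, 1 higher and 9 lower in MCA-943, where 17.7% of all genes were higher and 11.3% lower. Against MCA-970, 8 members were called, all lower in MCA-943, where 12.6% of all genes were higher and 14.8% lower. In the pair with MCA-972, MCA-943 had 3 members higher and 2 lower, where 12.2% of all genes were higher and 13.4% lower. The median log2 fold change over the members was -0.45 against MCA-948, -0.39 against MCA-970 and -0.07 against MCA-972, and the median over all genes stayed within 0.05 of 0 in each pair.

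MCA-969 was set against the same 3 lines. Against MCA-948, 3 members were called, all higher in MCA-969, where 16.8% of all genes were higher and 3.91% lower. Against MCA-970, 3 were higher and 1 lower, where the background was 10.7% and 10.7%. Its pair with MCA-972 gave 7 higher and 1 lower, where it was 10.3% and 10.3%, and the members' median was 0.44. Glucose uptake, phosphofructokinase, aldolase, lactate dehydrogenase and carbonic anhydrase genes (Slc2a1, Slc2a3, Pfkp, Aldoc, Ldha, Car9, Car12) were the 7 higher ones, and P4ha2 was the lower one.

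Lines of the same class also differed. The non-sensitive lines MCA-943 and MCA-969 differed in 10 members, all lower in MCA-943, where 12.1% of all genes were higher and 14.9% lower. Among the sensitive lines, MCA-948 against MCA-970 gave 3 members, all lower in MCA-948 (9.64% of all genes higher, 19.8% lower), MCA-948 against MCA-972 gave 11 higher and 1 lower (8.27% and 18.5%), and MCA-970 against MCA-972 gave 2 members, both higher in MCA-970 (8.56% and 9.01%). The 11 members higher in MCA-948 than in MCA-972 were Gpi1, Pfkp, Aldoa, Pgk1, Pgam1 and Ldha, together with Slc2a3, Pdk1, Bnip3, Egln3 and Ddit4. Without MCA-948 a-2G and a-R, 5 of them were no longer called, Gpi1 (0.88), Pgk1 (0.92), Pgam1 (0.88), Bnip3 (0.83) and Ddit4 (0.91). The same 5 were lost with the set of index numbers as a term (0.84 to 0.99). This set is a split, made here, of the index numbers in the labels into lower and higher ones. As a share of the 36 members, the 11 lay above the background for higher genes in that pair, and the chart of called shares puts each pair beside its background.

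**Figure D2:**
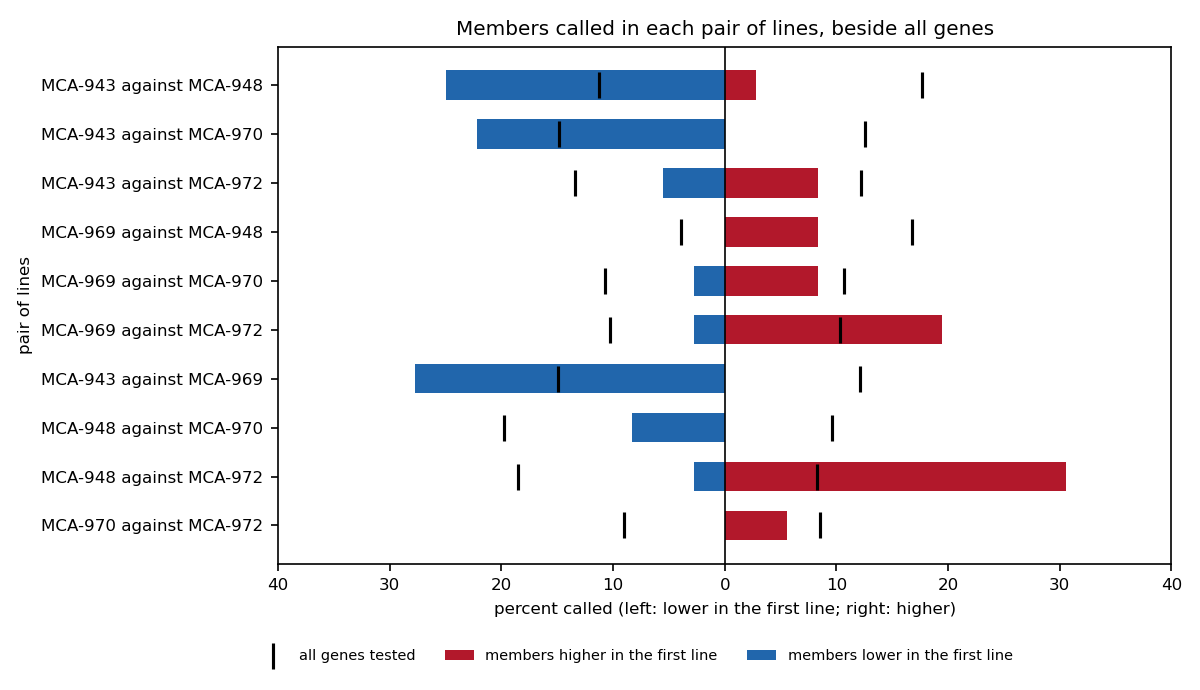
Percent of the 36 members called in each pair of lines (horizontal axis), with bars to the right for members higher in the first-named line and to the left for members lower in it, and black ticks for the percent of all 16862 genes called. Bars reach past their tick on the left for MCA-943 against MCA-948, MCA-970 and MCA-969, and on the right for MCA-969 and MCA-948 against MCA-972.

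These counts moved with the library run and with single tumors. With the run as a term in the fit, 39 of the 65 calls were kept, 24 no longer passed and 2 turned sign, and the counts became 5 for MCA-943 against MCA-970, 4 for MCA-943 against MCA-969 and 13 for MCA-948 against MCA-970. Only MCA-948 and MCA-969 span more than 1 run, so the run term rests on their tumors. The MCA-948 tumors of the second run, a-2G and a-R, had the highest member means of their line (0.65 and 0.47 log2 above the line mean). An effect of run and the spread between tumors cannot be told apart there. With the set of index numbers as a term, 45 calls were kept, and without MCA-948 a-2G and a-R, 57. Without MCA-943 a-1G, 13 members were called against MCA-970 and 9 against MCA-972. MCA-948 against MCA-970 gave 5 members without MCA-948 a-2G, without MCA-948 a-R or without MCA-970 a-2D, and MCA-970 against MCA-972 gave 6 without MCA-972 a-1 and 4 without MCA-972 a-1G. Within the third run, 8 of the 10 calls of MCA-943 against MCA-948 were made again. Within the first run, 7 of the 8 calls of MCA-969 against MCA-972 were, and within the second run 4 of 4 of MCA-969 against MCA-970. Within the second run MCA-948, with 2 tumors, had 11 members higher and 2 lower than MCA-970 (7.92% of all genes higher, 15.7% lower), and kept 1 of the 3 calls. MCA-969 against MCA-948 could be set within a run only as 2 tumors against 2, where the 3 called members kept their sign and did not pass, and the other 5 pairs share no run.

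Glucose enters the cell through the transporters Slc2a1 (GLUT1) and Slc2a3 (GLUT3). Slc2a1 was read at 89.9, 125.1, 134.5 and 157 CPM in the 4 MCA-943 tumors and at 121, 182, 204 and 279 CPM in the 4 MCA-972 tumors. For Slc2a1 the other lines had a lowest, median and highest value of 233, 363 and 631 CPM in MCA-969, of 132, 282 and 443 CPM in MCA-948 and of 287, 354 and 471 CPM in MCA-970. All 4 MCA-943 tumors lay below every MCA-969 and MCA-970 tumor, and MCA-943 overlapped MCA-948 and MCA-972. The log2 fold change of MCA-943 was -1.68 against MCA-969 (SE 0.29, edgeR adjusted p = 1.58e-05), -1.53 against MCA-970 (SE 0.30, adjusted p = 7.98e-05) and -1.16 against MCA-948 (SE 0.29, adjusted p = 8.3e-04). With the run as a term Slc2a1 lost its calls against MCA-969 (-0.97) and MCA-970 (-0.999), and with the set of index numbers as a term those against MCA-948 (-0.998) and MCA-970 (-0.96). Slc2a1 in MCA-969 exceeded MCA-972 by 1.05 (SE 0.28, adjusted p = 0.0027), a call lost without MCA-969 W-2G (0.94), MCA-969 W-R (0.94) or MCA-972 2G (0.88) and with the index set as a term (0.73).

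Slc2a3 set MCA-943 and MCA-972 apart from the other lines. Slc2a3 was read at 9.85, 14.3, 14.7 and 18.9 CPM in MCA-943 and at 8.89, 10.1, 14.3 and 16.7 CPM in MCA-972. For Slc2a3 the lowest, median and highest values were 37.2, 61.4 and 83.8 CPM in MCA-969, 23.7, 52.8 and 108.5 CPM in MCA-948, and 28.6, 34.6 and 50.6 CPM in MCA-970. No tumor of MCA-943 or MCA-972 reached the lowest of the other 3 lines. MCA-969 exceeded MCA-972 by a log2 fold change of 2.31 (SE 0.33, edgeR adjusted p = 1.34e-06), the value of MCA-943 minus MCA-969 was -2.10, and all 6 of these pairs were called. Within runs the Slc2a3 value of MCA-943 minus MCA-948 was -1.71 and that of MCA-969 minus MCA-972 was 2.35, both called again. With the run as a term the call against MCA-970 was lost for Slc2a3 in MCA-943 (-0.36), as was that against MCA-969 (-0.98). With the index set as a term the Slc2a3 calls of MCA-943 against MCA-970 (-0.74) and of MCA-970 against MCA-972 (0.95) were lost.

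Hexokinases commit glucose to the pathway, and Hk1, the form most cells express, was among the steadiest members while Hk2, the form HIF raises, was not. Hk1 line means ran from 113 ± 13.1 CPM in MCA-972 (SD, n = 4) to 149.9 ± 7.67 in MCA-970 (n = 6). Hk2 was read at 44.3, 48.3, 50.9 and 52.2 CPM in MCA-943, below every tumor of the other lines, and at 55, 92.2, 109 and 134 CPM in MCA-972. For Hk2 the lowest, median and highest values were 78.3, 107.5 and 238 CPM in MCA-969, 59.4, 89.3 and 130.0 CPM in MCA-948, and 81.3, 96.1 and 111 CPM in MCA-970. Hk2 was called in 1 pair, MCA-943 against MCA-969 (log2 fold change -1.34, SE 0.24, edgeR adjusted p = 2.15e-05). Divided by gene length, Hk1 made up 67.5% ± 3.3 of hexokinase reads (Hk1 plus Hk2) in MCA-943 and 42.6% ± 6.5 in MCA-969, with the other lines at 45.9% to 52.4%. The lowest MCA-943 tumor, at 64.2%, lay above the highest tumor of all other lines, at 60.4%.

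Phosphofructokinase, the main control point of glycolysis, is built from a liver (Pfkl), a muscle (Pfkm) and a platelet (Pfkp) form. MCA-972 differed from the other lines in the transcript levels of Pfkp and Pfkm. Pfkp was read at 26.4, 31.7, 32.6 and 36.8 CPM in MCA-972 and at 72.5, 79.3, 81.8 and 89.3 CPM in MCA-943. For Pfkp the lowest, median and highest values were 62.6, 83.2 and 114 CPM in MCA-969, 60.3, 114.8 and 132 CPM in MCA-948, and 88.1, 96.0 and 121 CPM in MCA-970. Every MCA-972 tumor lay below all 26 others. Pfkp was lower in MCA-972 in all 4 pairs, most against MCA-948 (log2 fold change of MCA-948 over MCA-972 1.73, SE 0.18, edgeR adjusted p = 3.1e-09) and least against MCA-943 (1.34, SE 0.20, adjusted p = 1.67e-06). Pfkm, singled out after its values were seen, was 126, 136, 138 and 163 CPM in MCA-972 and at most 106 CPM elsewhere. Its differences passed the adjusted p in those 4 pairs but stayed under a log2 change of 1, the widest being -0.96 in MCA-969 against MCA-972 (SE 0.11, adjusted p = 1.88e-08). Per length, Pfkm was 59.5% ± 2.0 of phosphofructokinase reads in MCA-972 (57.1% to 61.6%) and at most 52.5% in any other tumor, while Pfkp was 4.26% there (3.69% to 4.8%) and at least 10.4% elsewhere. With lengths from the annotation in place of those in the count table, the mean shares in MCA-972 were 66.2% for Pfkm and 3.75% for Pfkp.

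The middle of the pathway holds the abundant aldolase Aldoa, the isomerases Gpi1 and Tpi1 and the lower enzymes Gapdh, Pgk1, Pgam1 and Eno1. Tpi1, Gapdh and Eno1 were called in no pair. Gpi1 was called higher than in MCA-972 in MCA-943 (log2 fold change 1.02) and MCA-948 (1.20), Aldoa in MCA-948 over MCA-972 (1.31), and Pgk1 and Pgam1 in MCA-948 over MCA-972 (1.14 and 1.03) and lower in MCA-943 than in MCA-948 (-1.20 and -1.04). Without MCA-948 a-2G and a-R together, Pgk1 (-0.98) and Pgam1 (-0.89) lost the call of MCA-943 against MCA-948, as they did with the run as a term. The size fell under a log2 change of 1 for Gpi1 in MCA-943 over MCA-972 with DESeq2 (0.98) and without MCA-972 2G, MCA-972 a-R, MCA-943 W-2G or MCA-943 a-1G (0.88 to 0.99), for Pgam1 in MCA-943 against MCA-948 without MCA-948 a-2G, MCA-948 a-R or MCA-943 a-R (-0.9996 to -0.96), and for Pgam1 in MCA-948 over MCA-972 without MCA-972 2G, MCA-972 a-R, MCA-948 a-2G, MCA-948 a-R or MCA-948 W-2D (0.94 to 0.99). Pgk1, which makes the first ATP of the pathway, averaged 786 ± 256 CPM in MCA-948 against 342.5 to 424 CPM in the other lines. Tpi1 averaged 921 ± 91.8 CPM in MCA-970 against 465 to 602 CPM elsewhere. Gpi1 averaged 370.2 and 313 CPM in MCA-970 and MCA-972 against 604.5 to 720 CPM in the other 3 lines. The minor aldolase Aldoc, known from brain, was read at 0.98, 1.06, 1.93 and 1.97 CPM in MCA-943 and at 0.94, 1.91, 2.14 and 6.03 CPM in MCA-972. For Aldoc the lowest, median and highest values were 5.51, 10.2 and 21 CPM in MCA-969, 0.89, 1.70 and 10.8 CPM in MCA-948, and 2.43, 3.48 and 3.66 CPM in MCA-970. MCA-969 did not overlap MCA-943 or MCA-970 in Aldoc, and it overlapped MCA-948 through a-2G and a-R and MCA-972 through a-1. The log2 fold change of MCA-943 minus MCA-969 was -2.93 (SE 0.62, edgeR adjusted p = 1.82e-04). That difference fell to -0.71 with the run as a term and the call was lost, as it was against MCA-948 (0.60 in place of 1.74). Aldoc made up at most 2.47% of the aldolase reads per length in any tumor.

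Eno2, the minor enolase known from neurons, was highest in MCA-970 with 26.3, 30.1 and 35.7 CPM as lowest, median and highest. It was 11.8 to 17.3 CPM in MCA-943, 12.5 to 19.4 CPM in MCA-972, 13.2 to 26.2 CPM in MCA-969 and 5.69 to 27.3 CPM in MCA-948, so that only MCA-948, through a-2G, overlapped MCA-970. Eno2 was called in MCA-948 against MCA-970 (log2 fold change -1.31, SE 0.26, edgeR adjusted p = 7.45e-05) and in MCA-943 against MCA-970 (-1.03, SE 0.33, adjusted p = 0.00787). The first of these Eno2 calls was lost with the run as a term (-0.50) and the second turned sign (0.19), both were lost with the index set as a term (-0.88 and -0.35), and the second was lost without MCA-970 W-2D, MCA-970 W-R, MCA-943 a-1D or MCA-943 a-R (-0.998 to -0.927). Pkm, the pyruvate kinase that makes the last ATP of the pathway, had the highest level per length of all members in each line by the table's lengths, with line means of 703 to 1056 CPM per kb. By annotation lengths Pkm was no longer the highest in MCA-948, where Aldoa had 489.5, Ldha 486.8 and Pkm 486.2 CPM per kb, or in MCA-970, where Gapdh had 455.2 and Pkm 384.9 CPM per kb. By its own reads Pkm ran from 1828 ± 271 CPM in MCA-972 to 2746 ± 248.8 in MCA-969, a log2 fold change of 0.59 (SE 0.12, edgeR adjusted p = 2.23e-04), and it was called in no pair at a log2 change of 1. Summed over the 15 enzymes from hexokinase to pyruvate kinase, glycolysis took 0.599% ± 0.098 of all counts in MCA-972, 0.717% ± 0.077 in MCA-943, 0.788% ± 0.078 in MCA-970, 0.833% ± 0.090 in MCA-969 and 0.943% ± 0.256 in MCA-948.

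Fructose 2,6-bisphosphate switches phosphofructokinase on, and Pfkfb3 and Pfkfb4 make and break it. Pfkfb3 was read at 15.3, 16.6, 19.7 and 19.7 CPM in MCA-943 and at 46.5, 83, 95 and 158 CPM in MCA-972. For Pfkfb3 the lowest, median and highest values were 35.2, 59.7 and 101 CPM in MCA-969, 28.2, 54.4 and 99.5 CPM in MCA-948, and 99.3, 117 and 144 CPM in MCA-970. All 4 MCA-943 tumors lay below the 26 others. The log2 fold change of MCA-943 was -2.75 against MCA-970 (SE 0.34, edgeR adjusted p = 7.02e-08), -2.43 against MCA-972 (SE 0.35, adjusted p = 1.17e-06), -1.86 against MCA-969 (SE 0.32, adjusted p = 1.14e-05) and -1.71 against MCA-948 (SE 0.32, adjusted p = 2.65e-05). With the run as a term the Pfkfb3 call against MCA-969 was lost (-1.01), and within the third run the call against MCA-948 was made again (-1.49, adjusted p = 1.89e-04). Pfkfb3 also passed in MCA-948 against MCA-970 (-1.04, adjusted p = 5.7e-04), a call lost without MCA-970 W-R, MCA-948 W-1G, MCA-948 a-1G or MCA-948 a-2D (-0.99 to -0.94) and with the run (-0.49) or the index set (-0.52) as a term. Pfkfb4 was low everywhere, with line means of 3.11 CPM in MCA-943 to 7.68 CPM in MCA-969.

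**Figure D3:**
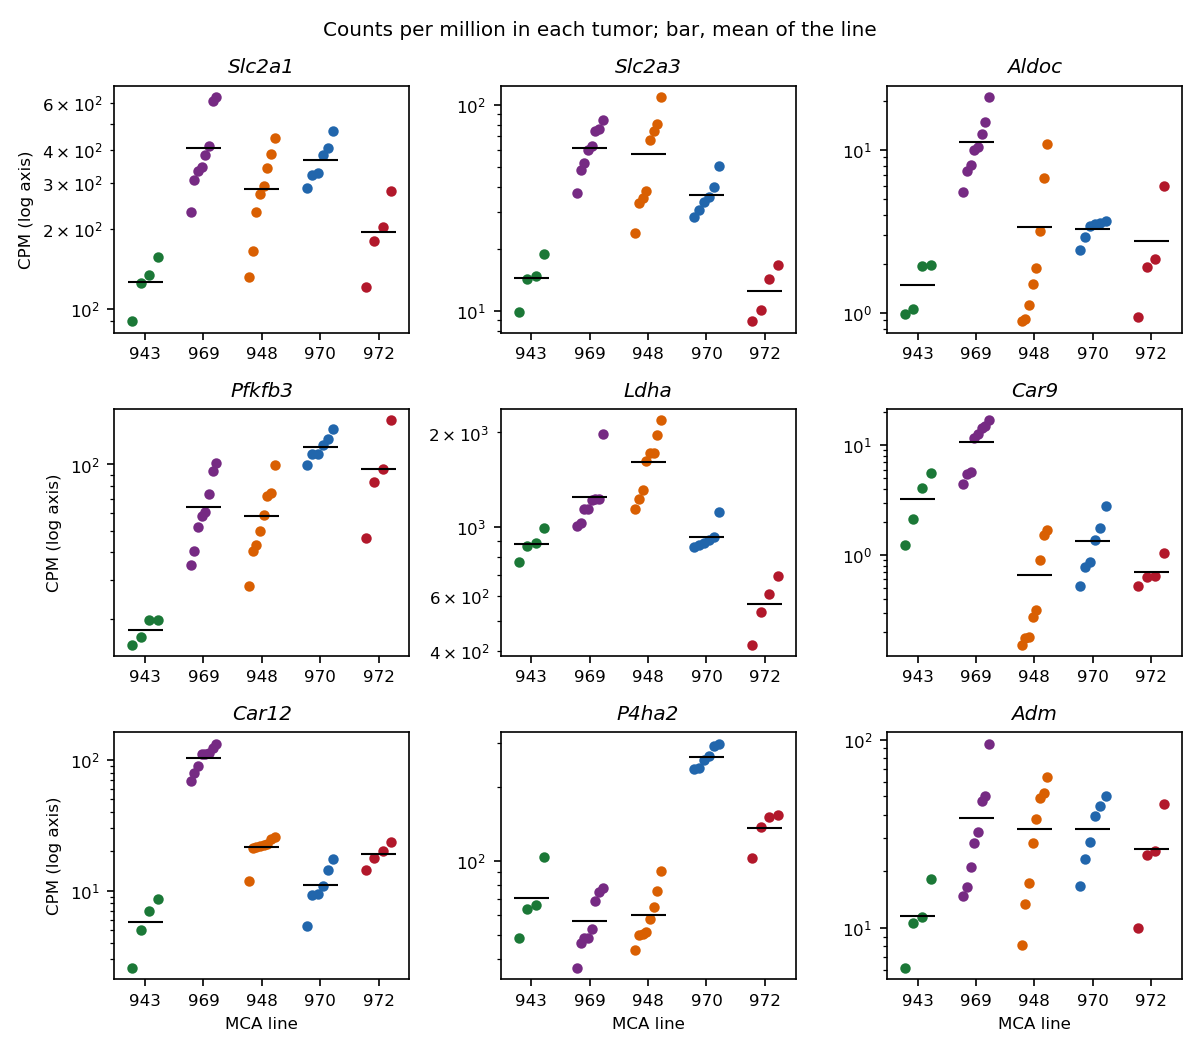
CPM in each tumor (vertical axis, logarithmic) for 9 members, by line (horizontal axis); each point is a tumor, ordered by value within its line, and the bar is the mean of the line. MCA-943 lies below all other lines in Pfkfb3, MCA-969 above all others in Car12, MCA-970 above all others in P4ha2 and MCA-972 below all others in Ldha.

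At the end of the pathway Ldha, which makes lactate, separated MCA-972 from every other line. Ldha was read at 420.4, 532.5, 612 and 696 CPM in MCA-972 and at 773, 867, 889.8 and 992 CPM in MCA-943. For Ldha the lowest, median and highest values were 1003, 1181 and 1982 CPM in MCA-969, 1143, 1672 and 2185 CPM in MCA-948, and 865, 897 and 1117 CPM in MCA-970. Every MCA-972 tumor lay below all others. Ldha was called in MCA-948 against MCA-972 (log2 fold change 1.51, SE 0.18, edgeR adjusted p = 1.52e-08) and in MCA-969 against MCA-972 (1.14, SE 0.17, adjusted p = 2.4e-06), and the second call was lost with the run as a term (0.99) or the index set as a term (0.92). Pdk1, the kinase that keeps pyruvate out of the mitochondrion, had line means of 88.4 ± 30.7 CPM in MCA-972 and 225 ± 82.8 CPM in MCA-948, and passed in that pair.

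Car9 and Car12 are carbonic anhydrases of the cell surface, which turn carbon dioxide into bicarbonate and acid outside the cell. Car9, widely used as a marker of hypoxic tumor, was a low transcript here. Car9 was read at 1.22, 2.15, 4.10 and 5.59 CPM in MCA-943 and at 0.52, 0.64, 0.64 and 1.04 CPM in MCA-972. For Car9 the lowest, median and highest values were 4.46, 12.1 and 16.8 CPM in MCA-969, 0.153, 0.295 and 1.70 CPM in MCA-948, and 0.528, 1.12 and 2.80 CPM in MCA-970. All 8 MCA-969 tumors lay above every tumor of the 3 sensitive lines, MCA-943 lay above every MCA-972 tumor, and MCA-943 overlapped MCA-948 and MCA-970. The 2 MCA-948 tumors of the second run, a-2G and a-R, held the highest values of their line (1.51 and 1.70 CPM).

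Car9 had its higher mean in MCA-943 or MCA-969 in each of the 6 pairs that set those lines against sensitive ones. The log2 fold change was 4.05 for MCA-969 over MCA-948 (SE 0.49, edgeR adjusted p = 4.37e-08), 3.92 over MCA-972 (SE 0.66, adjusted p = 1.16e-05) and 3.0 over MCA-970 (SE 0.52, adjusted p = 1.45e-05). For MCA-943 it was 2.32 over MCA-948 (SE 0.54, adjusted p = 4.31e-04), 2.19 over MCA-972 (SE 0.66, adjusted p = 0.00619) and 1.27 over MCA-970, where the adjusted p was 0.053. By the edgeR rule, then, 0 of 36 members were called in all 6 pairs in one direction, where 0.652% of all genes were higher and 0.225% lower in all 6. Car9 alone passed all 6 at an unadjusted p under 0.05, it passed all 6 under DESeq2 (largest adjusted p = 0.0444), and limma-voom called 0 members in all 6. It also passed all 6 with the library run as a term, with the set of index numbers as a term, without the 2 MCA-948 tumors of the second run, and without any one of 9 tumors (MCA-948 a-2G, a-R, W-1D, W-1G and a-1G, MCA-970 W-2D, MCA-969 W-2D, MCA-943 a-1D and a-R). Car9 did not pass all 6 when any other of the 30 tumors was left out. Nor did it with DESeq2 size factors, the other filters or the title code as a block. With 2 lines against 3, the smallest exact permutation p over lines is 0.1. Between the non-sensitive lines Car9 was lower in MCA-943 than in MCA-969 (log2 fold change -1.73, SE 0.56, edgeR adjusted p = 0.00931). The sign of that Car9 difference turned when the run was a term (0.65).

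Car12 followed a different order. Car12 was read at 2.58, 5.0, 7.03 and 8.66 CPM in MCA-943 and at 14.4, 17.8, 20.2 and 23.6 CPM in MCA-972. For Car12 the lowest, median and highest values were 69.1, 111 and 133 CPM in MCA-969, 11.8, 22.3 and 25.6 CPM in MCA-948, and 5.37, 10.1 and 17.4 CPM in MCA-970. MCA-969 lay above all 22 other tumors. The log2 fold change of MCA-969 was 2.27 over MCA-948 (SE 0.21, edgeR adjusted p = 2.82e-10), 2.45 over MCA-972 (SE 0.28, adjusted p = 2.62e-08) and 3.22 over MCA-970 (SE 0.25, adjusted p = 8.95e-12), and that of MCA-943 minus MCA-969 was -4.16 (SE 0.31, adjusted p = 4.86e-12). MCA-943 was lower than MCA-948 (-1.89, SE 0.28, adjusted p = 1.01e-06) and MCA-972 (-1.71, SE 0.30, adjusted p = 2.37e-05), the latter call being lost with the run as a term (-1.26). Car12 thus differed in opposite directions for the non-sensitive lines against MCA-948 and MCA-972. Within runs Car12 was 2.48 higher in MCA-969 than in MCA-972 (adjusted p = 1.57e-06) and 3.12 higher than in MCA-970 (adjusted p = 2.25e-04).

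Bnip3 and Bnip3l mark mitochondria for removal. Bnip3 was read at 29.8, 50.0, 55.6 and 105 CPM in MCA-943 and at 52.2, 76.3, 101 and 136 CPM in MCA-972. For Bnip3 the lowest, median and highest values were 67.3, 119 and 219.6 CPM in MCA-969, 88.1, 202 and 311 CPM in MCA-948, and 126, 171 and 199.8 CPM in MCA-970. MCA-943 overlapped every line but MCA-970. Bnip3 was lower in MCA-943 than in MCA-948 (log2 fold change -1.66, SE 0.36, edgeR adjusted p = 1.83e-04), MCA-970 (-1.49, SE 0.37, adjusted p = 9.26e-04) and MCA-969 (-1.14, SE 0.35, adjusted p = 0.00589), the last call being lost without MCA-943 a-R (-0.91), and the last pair of calls with the run as a term (-0.71 and -0.49) and with the index set as a term (-0.78 and -0.74). It was higher in MCA-948 than in MCA-972 by 1.06 (SE 0.34, adjusted p = 0.0089), a call lost without MCA-972 2G, MCA-972 a-R, MCA-948 a-2G or MCA-948 W-2G (0.87 to 0.98), without a-2G and a-R together (0.83) and with the set of index numbers as a term (0.84). With the run as a term this Bnip3 call was lost too, although its size rose to 1.43. Bnip3l ran only from 108 CPM in MCA-948 to 167 CPM in MCA-970 and was called in no pair.

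Of the HIF alpha genes, Hif1a was called in no pair of lines in the fit of all tumors, and Epas1 varied more within lines than between them. Hif1a was read at 319, 335, 347 and 369 CPM in MCA-972 and at 230.0, 261, 307 and 334 CPM in MCA-943. For Hif1a the lowest, median and highest values were 250.1, 292 and 327.5 CPM in MCA-969, 174, 202.5 and 267 CPM in MCA-948, and 308, 376 and 399 CPM in MCA-970. MCA-948 lay below MCA-970 and MCA-972 without overlap, with log2 fold changes of -0.76 (SE 0.10, edgeR adjusted p = 4.25e-08) and -0.68 (SE 0.11, adjusted p = 2.66e-06), both under a log2 change of 1. Within the second run the Hif1a value of MCA-948 minus MCA-970 was -1.03 (SE 0.11, adjusted p = 3.14e-05), which passed that threshold with 2 MCA-948 tumors. MCA-948 was thus the lowest line for Hif1a and the highest line for 12 other members. Epas1 ran from 2.30 to 52.4 CPM within MCA-948 (median 8.89), from 8.35 to 37.0 CPM in MCA-969 (median 24.9) and from 9.81 to 38.7 CPM in MCA-970 (median 25.6), against 13.1 to 19.7 CPM in MCA-943 and 13.2 to 19 CPM in MCA-972. All 5 lines overlapped for Epas1. Epas1 is also well expressed in endothelial cells, whose 10 markers summed to 36.4 to 507 CPM in MCA-948, and their part in its spread was not tested.

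Egln3, the HIF-induced prolyl hydroxylase, was read at 28.8, 47.4, 66.4 and 114 CPM in MCA-943 and at 29.3, 51.5, 83 and 127 CPM in MCA-972. For Egln3 the lowest, median and highest values were 56.2, 96.2 and 204 CPM in MCA-969, 66.9, 188 and 365 CPM in MCA-948, and 79.5, 118 and 154 CPM in MCA-970. All lines overlapped. Egln3 was called lower in MCA-943 than in MCA-948 (log2 fold change -1.55, SE 0.44, edgeR adjusted p = 0.00324) and higher in MCA-948 than in MCA-972 (1.37, SE 0.44, adjusted p = 0.00803). Under the run term the second Egln3 call no longer passed, although its size rose to 1.94. Egln1, the main oxygen sensor, stayed between 117 and 163 CPM in its line means.

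P4ha1 and P4ha2 hydroxylate proline in collagen and so stabilise its triple helix. P4ha2 separated the lines more cleanly than most members. P4ha2 was read at 102.8, 138, 150.5 and 154 CPM in MCA-972 and at 48.6, 63.9, 66.4 and 103.4 CPM in MCA-943. For P4ha2 the lowest, median and highest values were 36.8, 50.7 and 77.4 CPM in MCA-969, 43.3, 54.7 and 90.7 CPM in MCA-948, and 235, 262 and 299 CPM in MCA-970. All 6 MCA-970 tumors lay above the other 24, and MCA-972 lay above MCA-969 and MCA-948 without overlap. The log2 fold change against MCA-970 was -2.22 for MCA-969 (SE 0.18, edgeR adjusted p = 1.23e-11), -2.13 for MCA-948 (SE 0.17, adjusted p = 1.23e-11) and -1.91 for MCA-943 (SE 0.22, adjusted p = 2.2e-08). Against MCA-972 it was -1.26 for MCA-969 (adjusted p = 2.3e-06) and -1.17 for MCA-948 (adjusted p = 4.64e-06), the latter being lost with the run as a term (-0.68). Within the second run P4ha2 was again lower in MCA-969 than in MCA-970 (-2.23, adjusted p = 4.03e-04) and in MCA-948 than in MCA-970 (-1.65, adjusted p = 5.61e-06). P4ha1, at 414 to 486 CPM in the line means, did not differ beyond the spread between tumors.

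Of the remaining HIF targets, Adm codes for adrenomedullin, a peptide that widens vessels. Adm was read at 6.15, 10.6, 11.5 and 18.2 CPM in MCA-943 and at 10.04, 24.4, 25.6 and 45.8 CPM in MCA-972. For Adm the lowest, median and highest values were 14.8, 30.5 and 95.4 CPM in MCA-969, 8.17, 33.1 and 63.3 CPM in MCA-948, and 16.7, 33.9 and 50.1 CPM in MCA-970. MCA-943 was lowest but overlapped every line. Adm in MCA-943 differed from MCA-969 by a log2 fold change of -1.73 (SE 0.54, edgeR adjusted p = 0.00666), from MCA-970 by -1.55 (SE 0.55, adjusted p = 0.0168) and from MCA-948 by -1.54 (SE 0.53, adjusted p = 0.0129). The last pair of Adm calls was lost without MCA-943 a-R (-1.33 in both), and all 3 were lost with the run as a term (-0.61, -0.45 and -1.18), as the first and second were with the index set as a term (-0.94 and -0.28). Ndrg1, a stress-induced protein, had line means of 217 to 403.5 CPM, Ddit4, a brake on mTOR signalling, of 59.9 to 131 CPM, and Kdm3a, a histone demethylase, of 85.3 CPM in MCA-943 to 198.0 CPM in MCA-970. Ankrd37 lay between 3.72 and 29.9 CPM in single tumors of overlapping lines.

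Beyond the differences between lines, tumors of the same line differed in many members together. The pooled SD within lines was 0.349 on the log2 CPM scale at the median of the members and 0.267 at the median of all genes, and 25 of 36 members lay above the latter. Set against the 1000 genes nearest in mean level, the median member stood at percentile 93.8 for this SD. The widest were Epas1 (1.04), Car9 (0.94), Aldoc (0.88), Adm (0.87), Egln3 (0.72) and Ankrd37 (0.64), and among the narrowest were Hk1 and Hif1a (both 0.18). The ratio of the highest to the lowest tumor had a median over members of 2.33 in MCA-948 (1.71 over all genes), 1.94 in MCA-969 (1.94), 1.59 in MCA-972 (1.35), 1.46 in MCA-943 (1.25) and 1.37 in MCA-970 (1.45). MCA-970 was the line in which the members' ratio lay below that of all genes.

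**Figure D4:**
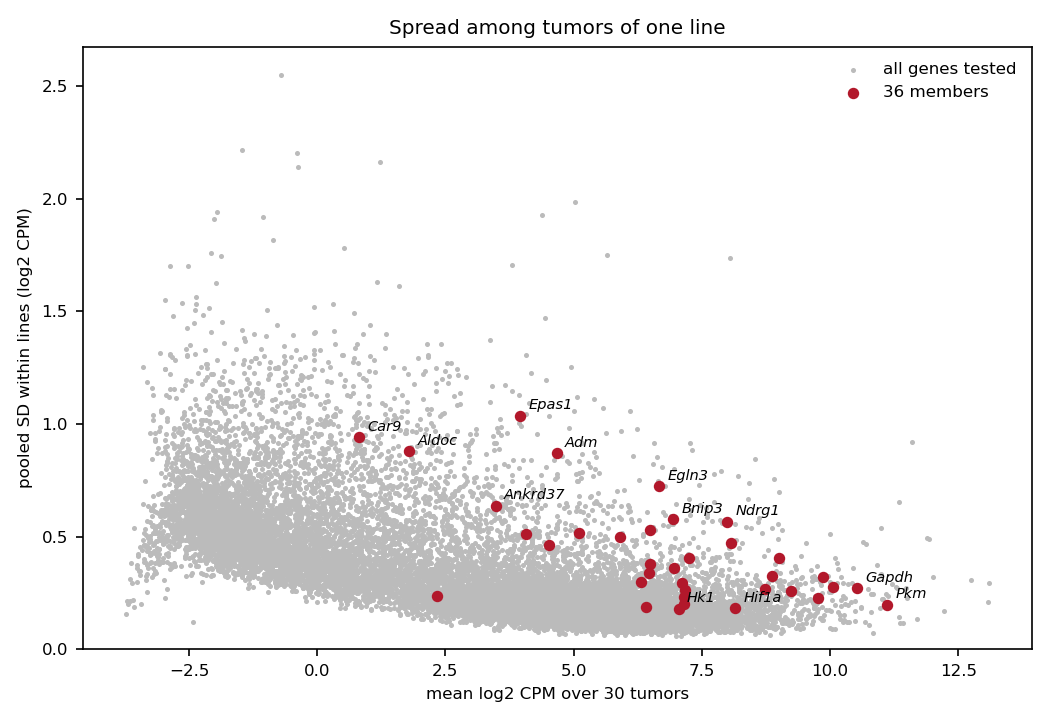
Pooled SD within lines on the log2 CPM scale (vertical axis) against mean log2 CPM over the 30 tumors (horizontal axis), for all genes tested (grey) and the 36 members (red). Epas1, Adm, Egln3 and Bnip3 lie toward the upper edge of the genes of their level, while Hk1 and Hif1a lie among the bulk.

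The members' highest and lowest values gathered in a few tumors of each line. In MCA-972 the tumor a-1 was the highest in 31 members and 2G the lowest in 34. In MCA-943 these were a-1G (29) and a-R (29), in MCA-948 a-2G (28) and a-1G (23), in MCA-970 W-2D (18) and a-2D (17), and in MCA-969 W-2G (15) and a-1D (19). Each is the tumor most often highest or lowest in its line, and no such count over all genes is given here. The number of members above the median of their line ran from 0 of 36 in MCA-969 a-1D to 35 of 36 in MCA-972 a-1, while the share of all genes above it stayed between 46.1% and 52.7% in every tumor. The 21 glycolytic members and the 15 others lay on the same side of the line mean in 24 of 30 tumors. The summed level of the 15 glycolytic enzymes ran from 4935 CPM in MCA-972 2G to 13760 CPM in MCA-948 a-2G.

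**Figure D5:**
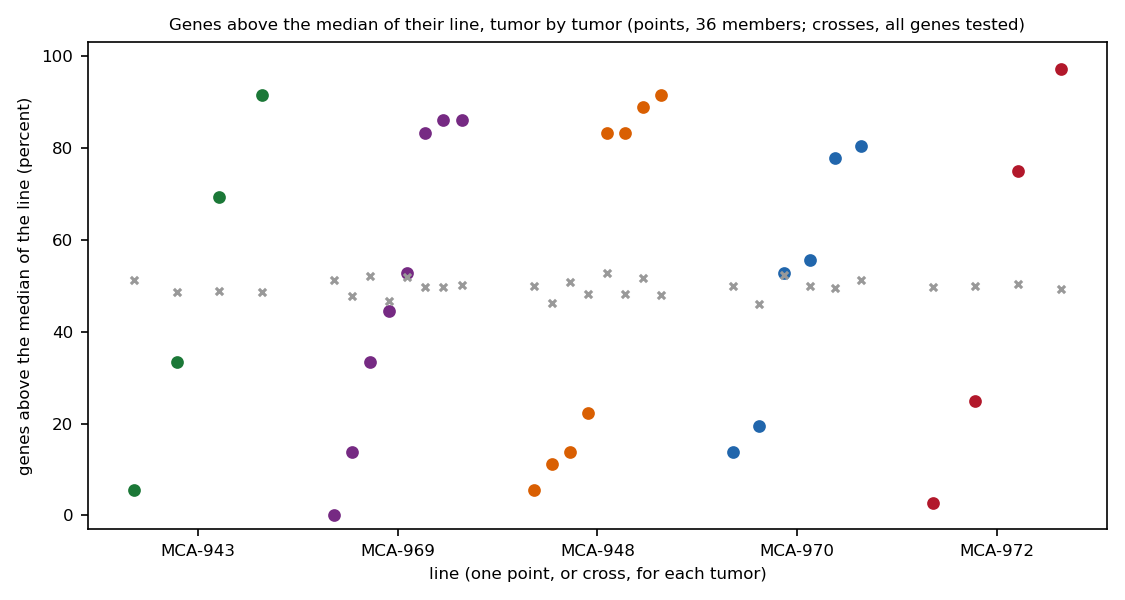
Percent of genes above the median of their line (vertical axis) in each tumor (horizontal axis, by line and ordered by the members' percent), with points for the 36 members and crosses for all genes tested. The points run from 0 to 35 of 36 members while the crosses stay between 46.1% and 52.7%.

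Other measures were set beside these extremes. The tumor with the highest mean of the members also had the highest sum of 8 erythroid markers in 4 of 5 lines, at 2889 CPM in MCA-948 a-2G, 2516 CPM in MCA-970 W-2D, 2483 CPM in MCA-972 a-1 and 780 CPM in MCA-969 W-2G, whereas for the endothelial, leukocyte and myeloid markers this held in 0 of 5. For 10 proliferation markers it held in 0 of 5 lines, for mesenchymal markers in 1 and for dissociation stress genes in 2. At the low end, the tumor with the lowest mean of the members had the lowest erythroid sum in only 1 of 5 lines. In MCA-972 that tumor, 2G, held 1692 CPM of erythroid markers. The erythroid sum was nonetheless higher in the highest member tumor than in the lowest in all 5 lines. In all 5 lines the sums of leukocyte, myeloid and proliferation markers were lower in the tumor with the highest mean of the members than in the tumor with the lowest, as in MCA-972, with 7.10 and 27.5 CPM for leukocytes. The dissociation stress sum was higher there in 4 of 5 lines, the mesenchymal sum in 3 and the endothelial sum in 2. The part of blood content, of these cells and of proliferation in the members' values was not tested. In MCA-948 both tumors of the second run lay above all 6 tumors of the third in 17 of 36 members, against 17% of all genes, and Hif1a was lowest in just these tumors (174 and 178 CPM).

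The tumor titles carry a letter, W or a, whose meaning neither the labels nor the methods give, and 26 tumors of 4 lines have both letters. With the line as a term, edgeR called 0 of 36 members between the letters at an adjusted p under 0.05, against 0.272% of 16557 genes, and DESeq2 and limma-voom called 0 as well. At an unadjusted p under 0.05 there were 6 members, Slc2a1 (log2 difference W minus a 0.35, SE 0.16), Hk1 (0.17), Hk2 (0.28) and Pfkp (0.31) with higher values under W, and Car12 (-0.42) and Epas1 (-0.83) with lower ones, and 1217 genes in all. The sign was positive in 31 of 36 members, with a median of 0.08 over members and -0.01 over all genes. The share of positive signs over all genes is not given here. Members varied together among tumors of a line, so these signs are not separate results. With the run as a term as well, 22 members and 2504 of 16557 genes had an unadjusted p under 0.05. The median was then 0.26 over members and -0.01 over all genes, and edgeR again called 0 members. Letter and run are partly confounded. In the second run the MCA-948 tumors both carry a, and the MCA-969 tumors both carry W. No member passed the test of a letter difference that depends on the line (smallest adjusted p = 0.426).

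The wider pathway was read from lists that hold no member. Of 25 further glycolysis genes, 19 had enough reads and all 19 passed the test across lines, with a median range of 1.47. The largest ranges belonged to low transcripts of muscle type, Pgam2 (1.05 CPM in MCA-969 and at most 0.14 CPM in the other lines) and Slc2a4 (1.09 CPM in MCA-970), to the muscle enolase Eno3 (22.2 CPM in MCA-969 to 3.21 CPM in MCA-972) and to Ldhb, the lactate dehydrogenase form of the heart (37.2 CPM in MCA-943 to 6.50 CPM in MCA-948). Ldhb was thus lowest in the line where Ldha was highest. Some line means lay under the level of 3 counts, for Pgam2 in MCA-943 (0.039 CPM) and MCA-948 (0.030 CPM) and for Slc2a4 in MCA-948 (0.082 CPM). The ranges of Pgam2 and Slc2a4 therefore depend on the prior count. All 8 further genes of oxygen sensing passed, led by the HIF partner Arnt2 (6.57 CPM in MCA-972 and 0.27 CPM in MCA-948), while Arnt itself ran from 101 CPM in MCA-943 to 285 CPM in MCA-970. Of 28 further HIF targets 26 passed, with a median range of 1.38, led by Lox, which cross-links collagen, at 759 CPM in MCA-943, 192 CPM in MCA-969, 63.9 CPM in MCA-948, 443 CPM in MCA-970 and 1181 CPM in MCA-972. Tumor by tumor, the mean of these 28 targets lay on the same side of the line mean as that of the 36 members in 25 of 30 tumors.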

How the data were processed

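RNA of 30 tumors was sequenced by the authors, aligned to GRCm38 with STAR 2.5.3a and counted per gene with featureCounts, version 1.5.2 per the submitters' processing notes, which also name Picard without its role. The strand setting is not given in the sources used here, so reads of members that overlap a gene on the opposite strand (Car9, Pfkp, Bnip3 and Gpi1 among them) may include that gene's. The deposited values are raw counts for 48440 genes, and 0 columns were left unused. Titles and library numbers assigned lines, letters and runs. Members and gene lists were chosen with earlier results of these data known.

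Genes were kept by edgeR's filterByExpr over lines (16862 genes). Counts were scaled by TMM and fitted with edgeR 4.0.16 (quasi-likelihood, robust) on the line alone, with Benjamini-Hochberg adjustment over all genes tested. A line was called different at an adjusted p under 0.05, and a pair at a log2 change of at least 1 besides. The SE of a log2 change is its size divided by the square root of the F statistic. Log2 CPM used a prior count of 2. CPM per kb used the lengths of the count table, and symbols came from GENCODE M21. The study used DESeq2, which was run here (1.42.0) as an alternative, as was limma-voom (limma 3.58.1). The other alternatives were DESeq2 size factors, other filters and thresholds, the run of library numbers, the set of index numbers or the title code as a term, a separate fit of each pair, and leaving out each tumor. Leaving out MCA-948 a-2G and a-R and fitting within a run were chosen after seeing the data.

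Values in every tumor or line with full statistics are given for the 12 members with the widest range of line means among those called, the 6 with the widest spread within lines, and Hif1a, Epas1, Slc2a1, Slc2a3, Hk1, Hk2, Ldha and Pkm, and up to 4 genes are named of each further list. Tumors that share letter and title code did not deviate together (29 pairs, r from -0.43 to 0.41, over 0.1 in 8), so the code was not taken as a pairing. No 2 tumors of a line agreed within sampling noise (chi-square per degree of freedom at least 13.8 in 83 pairs). Precision is limited by the number of tumors, and the floor of 3 counts covers counting error only. Tested on simulated data over 16862 genes, the fit recovered 134 of 200 genes changed by 1 on the log2 scale across the 5 lines with 10 others called, 141 of 200 with 4 others in MCA-943 against MCA-948, and 172 of 200 with 9 others between letters. These counts used the adjusted p alone, without the threshold on the log2 change, so they do not give the power of the pair calls. The simulated spread was the trend for genes of a level, and most members spread more than genes of their level. Reads of pseudogenes and relatives whose names mark them as copies of a glycolytic member were low (1.03 CPM at most in the mean). Copies under other names were not searched for. Reads that match both a member and a copy were not examined, so their effect on the members' levels is not known.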

Additional observations from a re-analysis of the deposited data

Results flagged for a closer look

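In 180 combinations of a member and a line, each with 4 to 8 tumors, 1 tumor stood clear of the rest in 7 (3.89%, where chance gives about 5%, or 1 in 20). The measure is the gap from that tumor to its nearest neighbour divided by the range of the line.

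In MCA-969 the tumor W-R was highest for Hk2 (0.537), at 238 CPM against 78.3 to 131 CPM in the others. The MCA-969 tumor W-2D was highest for Pgam1 (0.655), at 204 CPM against 122.5 to 146 CPM, and for Ldha (0.704), at 1982 CPM against 1003 to 1226 CPM, and it is 1 of the tumors whose label gives the opposite sensitivity.

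In MCA-970 the tumor a-2G was highest for Pfkl (0.637), at 139 CPM against 109.5 to 119 CPM, for Pfkp (0.629), at 121 CPM against 88.1 to 99.2 CPM, and for Ldha (0.725), at 1117 CPM against 865 to 928 CPM. In MCA-948 the tumor W-1D was lowest for Car12 (0.760), at 11.8 CPM against 21.3 to 25.6 CPM. The cause of these values was not tested.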

How the results depend on the processing

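Of the 65 differences called between lines, 65 were kept under limma-voom, without a filter on low counts, in separate fits, with the title code as a replicate block and without the 2 MCA-969 tumors labelled sensitive, 64 under DESeq2, DESeq2 size factors and a mean of at least 1 CPM, 63 at an adjusted p under 0.01, 57 without MCA-948 a-2G and a-R, 45 with the index set and 39 with the library run as a term. Without each single tumor 54 were kept, and 32 were kept under all 42 alternatives. The library run turned the sign of Eno2 in MCA-943 minus MCA-970 (0.19) and of Car9 in MCA-943 minus MCA-969 (0.65). The cause was not tested.

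Counts of called members changed as follows. Without a threshold on the fold change they were 25, 15 and 13 for MCA-943 against MCA-948, MCA-970 and MCA-972, 16, 20 and 18 for MCA-969 against the same lines, 17 for MCA-943 against MCA-969, and 22, 21 and 16 for MCA-948 against MCA-970, MCA-948 against MCA-972 and MCA-970 against MCA-972. The library run gave 5 for MCA-943 against MCA-970, 4 against MCA-969 and 13 for MCA-948 against MCA-970. The index set gave 4 for MCA-943 against MCA-970, 5 for MCA-969 against MCA-948, 9 for MCA-948 against MCA-970, 7 for MCA-948 against MCA-972 and 1 for MCA-970 against MCA-972. Without MCA-948 a-2G and a-R, 5 were called in MCA-969 against MCA-948 and 7 in MCA-948 against MCA-970. The replicate block gave 8 for MCA-970 against MCA-972 in place of 2. Members called in all 6 pairs across the sensitivity classes came to 1, Car9, under DESeq2, the library run, the index set and without MCA-948 a-2G and a-R.

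Leaving out each tumor gave 32 to 33 members across lines, 8 to 12, 7 to 13 and 4 to 9 for MCA-943 against MCA-948, MCA-970 and MCA-972, 3 to 4, 4 to 5 and 7 to 11 for MCA-969 against the same lines, 9 to 11 for MCA-943 against MCA-969, 2 to 5 for MCA-948 against MCA-970, 9 to 12 for MCA-948 against MCA-972, 2 to 6 for MCA-970 against MCA-972, 0 to 1 in all 6 pairs and 0 to 0 between letters. With annotation lengths the mean level of Pkm was 453 CPM per kb, and it was not the highest member in MCA-948 or MCA-970. At 3 counts to 0.0792 to 0.0908 CPM, depth limits among the members only Car9 in MCA-948, read at 0.153 CPM in its lowest tumor.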
